A study of Mus musculus with 22 samples.

Results

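Upper-layer neuron identity genes were followed in forebrain RNA-seq of *Prdm16* KO and control mouse embryos at E13.5. The set consists of 9 genes of upper-layer cortical neurons other than the POU factors, namely *Cux1*, *Cux2*, *Mef2c*, *Bhlhe22*, *Mdga1*, *Tle1*, *Tle3*, *Kitl* and *Rgs8*. They were chosen by symbol from a table of 24421 genes, and all 9 were among the 15027 genes with enough counts to be tested. The KO embryos were homozygous for a gene-trap null allele of *Prdm16*, which is carried in every tissue and not only in the forebrain. The controls were littermates that the sample labels describe as heterozygous or wild type and the Materials and Methods as wild type. The gene-trap mice were kept by outcrossing to FVB/NJ. The labels name the tissue as forebrain, and the Materials and Methods name dissected cortices. Each group held 3 embryos with 1 library each, named here by the animal number in the count table, KO F727, KO F728 and KO F731, and control F722, control F724 and control F725. Where 3 values are given per group, they stand in this order of the libraries.

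The neocortex is built from the inside out, with deep-layer neurons born first and upper-layer neurons last. Both kinds descend from radial glia (RG), directly or through intermediate progenitors, and many genes that mark upper layers in the mature cortex are already transcribed in progenitors or in other young neurons. PRDM16 is a zinc finger regulator of RG, and E13.5 precedes the birth of most upper-layer neurons. In bulk RNA, fewer cells of a type and less RNA per cell cannot be told apart.

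The libraries held 16638433 to 41140614 counts in KO and 28569526 to 43066648 in control. KO F731 stood apart from the rest, with the lowest depth, counts for 22991 genes against 17795 to 18320 in the other 5 libraries, and 7.39% of its counts in *Rn45s*, the ribosomal RNA precursor. The share of *Rn45s* was 2.43% in KO F727 and 0.522% in KO F728, and 0.224% to 0.615% in control. Erythroid markers summed to 5330 CPM (counts of a gene relative to the library total, with totals scaled by TMM) in KO F731, to 1470 and 1760 in the other KO libraries and to 1750 to 1860 in control. The value without KO F731 is therefore given beside that of each of the 9 genes. *Prdm16* itself had 349, 279 and 99 counts in KO and 2003, 2015 and 1114 in control, so the groups did not overlap. The 4 forebrain markers summed to 541 to 762 CPM in KO and 573 to 811 CPM in control. Of the 8 mid- and hindbrain markers, only *Gbx2* had enough counts to be tested, at 2.17 to 3.65 CPM in KO and 1.77 to 6.08 CPM in control. Each of the others had its highest count in KO F731, with 24 counts or fewer in any library.

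The 9 genes as a group lay close to the control level, and *Cux2* lay furthest below it, at a fold of 0.717. After adjustment over all genes 0 of the 9 were called by edgeR, which called 0.0% of all tested genes at a threshold of 0.05. DESeq2 also called 0 of the 9, and 0.115% of all genes it tested. The knocked-out gene *Prdm16* itself missed that threshold with edgeR, at a log2 fold change of -2.61 (adjusted *P*=0.0536). DESeq2 did call *Prdm16* (adjusted *P*=7.08e-24). The 0 calls by edgeR thus do not show that the 9 genes were unchanged. One of the 9, *Cux2*, had an unadjusted *P*-value under 0.05 in both tools, against 0.665% of all tested genes that were lower in KO at this level in edgeR, and none was higher at this level, against 1.26%. Without KO F731, *Cux2* was again the 1 such gene, against 1.19% of all tested genes. The log2 fold change was below 0 for 8 of the 9 genes, with a median of -0.11, whereas 50.8% of all tested genes lay below 0 and their median was -0.0037. Among the 5839 genes with an average level within the range of the 9, 61.8% lay below 0 and the median was -0.048. Without KO F731, 6 of the 9 genes lay below 0 with a median of -0.11, against 52.5% and a median of -0.0034 for genes of like level. KO F731 was the lowest of the 6 libraries for 7 of the 9 genes, as it was for 38.5% of all tested genes and for 53.0% of those of like level. The part of this library in the direction of the group was not tested beyond leaving it out. Every KO library was below every control library for 2 of the 9 genes, *Cux2* and *Tle3*, as for 3.55% of all tested genes, and for the same 2 genes without KO F731, as for 6.93%. No gene of the set had every KO library above every control, as 3.86% of all tested genes did. The summed level of the 9 genes was 787, 809 and 679 CPM in KO, and 803, 862 and 814 CPM in control. KO F728 thus lay above control F722, and the groups overlapped.

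**Figure D1:**
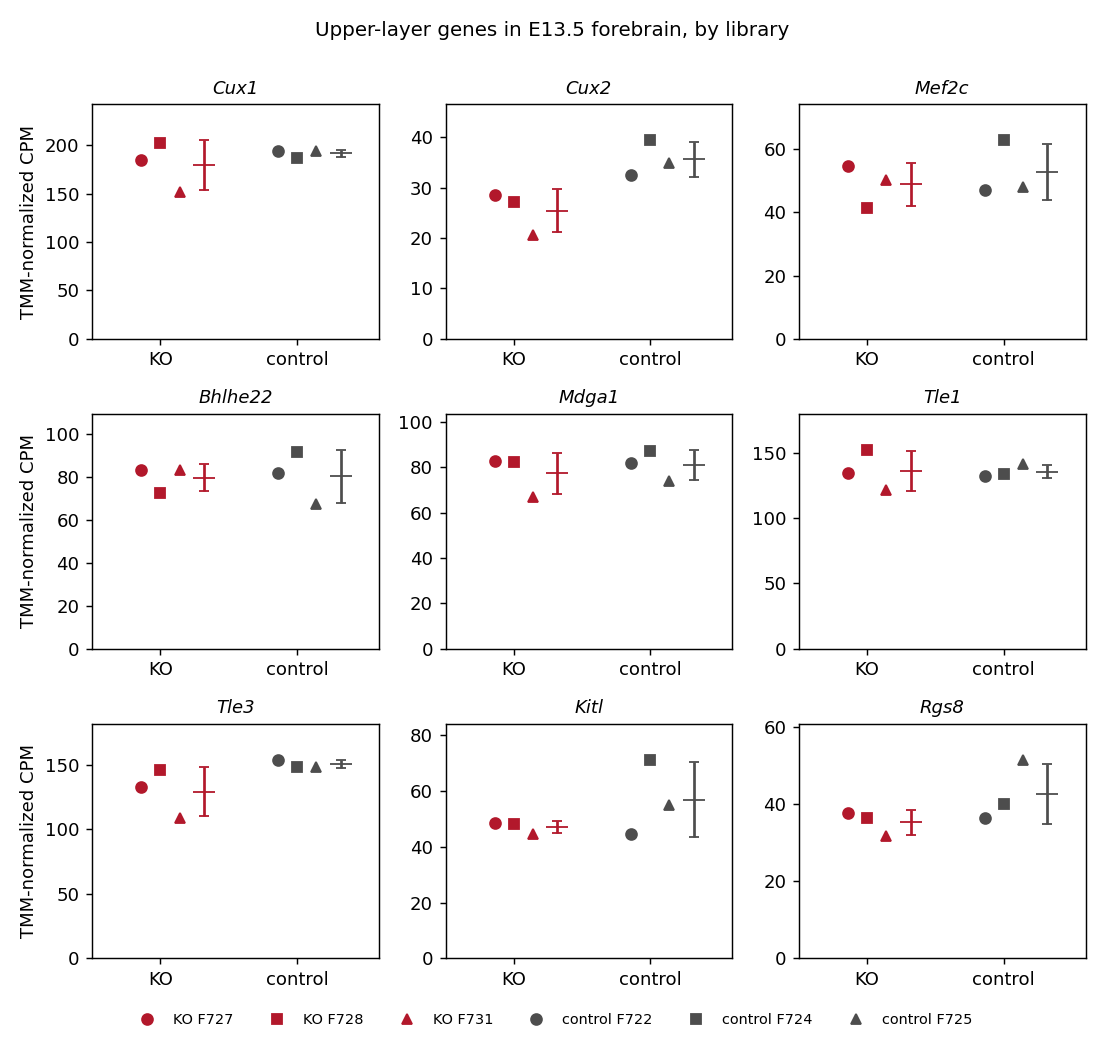
TMM-normalized CPM (vertical axes, starting at 0) of each of the 9 genes in each library, with KO libraries on the left in red and control libraries on the right in grey. The crossbars and whiskers are the mean and SD of 3 embryos. The *Cux2* and *Tle3* panels are those in which the red and grey points do not overlap.

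The 2 genes without overlap each have a paralog in the set that did overlap between the groups, so their start regions are shown in pairs. These are the 250 bases ahead of the annotated start in RefSeq (GRCm38.p6), 5′ to 3′ on the strand of the gene. Capitals mark matches on either strand to CANNTG, the E-box core that bHLH proteins such as BHLHE22 bind, and to CCAAT, a common element of promoters (ATTGG when read on the other strand). The *Cux2* window is chr5:122049852-122050101 on the minus strand, that of *Cux1* chr5:136565982-136566231 on the minus strand, that of *Tle3* chr9:61372116-61372365 on the plus strand and that of *Tle1* chr4:72200894-72201143 on the minus strand. In the GENCODE annotation, from which the gene positions below are taken, the *Cux2* and *Cux1* windows lie inside the gene. The *Tle1* window reaches partly into its gene, and that of *Tle3* lies ahead of it. The annotations thus differ on the start, and parts of these windows may be transcribed.
Cux2: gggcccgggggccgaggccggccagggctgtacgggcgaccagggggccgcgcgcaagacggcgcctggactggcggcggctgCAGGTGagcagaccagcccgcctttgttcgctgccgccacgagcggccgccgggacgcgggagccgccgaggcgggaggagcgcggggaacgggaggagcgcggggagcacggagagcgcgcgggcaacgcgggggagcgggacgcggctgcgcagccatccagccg
Cux1: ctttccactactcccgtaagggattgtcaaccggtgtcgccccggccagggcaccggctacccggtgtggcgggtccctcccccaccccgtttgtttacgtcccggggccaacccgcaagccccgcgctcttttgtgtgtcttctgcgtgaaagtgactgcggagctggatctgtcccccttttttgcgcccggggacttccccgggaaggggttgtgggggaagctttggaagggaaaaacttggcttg
Tle3: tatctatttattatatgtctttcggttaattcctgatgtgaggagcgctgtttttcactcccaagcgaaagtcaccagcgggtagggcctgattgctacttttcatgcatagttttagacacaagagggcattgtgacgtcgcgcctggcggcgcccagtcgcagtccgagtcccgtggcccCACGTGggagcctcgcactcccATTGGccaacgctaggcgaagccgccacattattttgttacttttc
Tle1: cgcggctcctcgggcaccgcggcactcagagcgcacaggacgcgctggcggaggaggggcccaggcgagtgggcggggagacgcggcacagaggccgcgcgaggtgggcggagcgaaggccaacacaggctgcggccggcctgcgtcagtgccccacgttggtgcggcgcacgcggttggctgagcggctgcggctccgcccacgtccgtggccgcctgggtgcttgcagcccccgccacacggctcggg
The *Cux2* window held 1 CANNTG match and no CCAAT match at a GC content of 80.0%, and the *Cux1* window held neither at 62.8%. The *Tle3* window held 1 match to each motif at 52.4% GC, and the *Tle1* window held neither at 77.2%. Over all 32851 such mouse windows the median GC content was 52.4%, 66.2% held CANNTG and 33.8% held CCAAT. None of these 4 windows held TATAAA, which was in 12.4% of all windows. *Cux2* has a second annotated start, whose window holds 2 CANNTG matches and 1 TATAAA match. In all, 8 of the 9 genes matched an entry, with 13 windows between them, and the one with none was *Bhlhe22*. The *Mef2c* windows held 2, 0 and 1 CANNTG matches and the *Rgs8* windows 0, 0 and 1, although both genes overlapped between the groups. The *Kitl* and *Mdga1* windows held none. A link between these motifs and the change in KO was not tested.

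*Cux2* encodes a cut-domain homeobox transcription factor of upper-layer neurons and their progenitors, known for its part in dendrite branching and synapse formation. It lies on chromosome 5 of GRCm38 from 121856366 to 122050102. Its level was 28.6, 27.2 and 20.6 CPM in KO, and 32.5, 39.5 and 34.99 CPM in control. All 3 KO libraries lay below all 3 controls, but the gap from KO F727 to control F722 was smaller than the range of the controls. The means were 25.5 ± 4.27 CPM in KO and 35.7 ± 3.52 CPM in control (SD, n = 3 embryos each), a log2 fold change of -0.48 with a standard error of 0.15 and a 95% interval of -0.84 to -0.13. This is a fold of 0.717, with an interval of 0.56 to 0.916. The edgeR *P*-value was 0.0145 before and 0.863 after Benjamini-Hochberg adjustment over all genes, and the adjusted *P*-value ranged from 0.477 to 1.0 over the alternatives. The two-sided exact permutation test of log2 CPM gave *P*=0.1, the smallest that 3 against 3 embryos allow. Without KO F731 the log2 fold change was -0.36, with an unadjusted edgeR *P*-value of 0.0105, and without control F724, the highest library, it was -0.40 with one of 0.0615. The value was below 0 under each of the 19 alternatives.

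*Cux1* encodes the paralog of CUX2, which is also expressed in upper-layer neurons but has a broader expression among other cells. It lies further along the same chromosome, from 136248135 to 136567490. *Cux1* was at 184, 202.5 and 152 CPM in KO, and at 193.5, 187 and 194 CPM in control. The controls were within a narrow band, with a coefficient of variation of 1.92%, and the KO libraries fell on both sides of it. Its log2 fold change was -0.093 (standard error 0.12, 95% interval -0.38 to 0.19, edgeR adjusted *P*=0.866), and 0.015 without KO F731. This interval does not reach the value of -0.48 measured for *Cux2*, but it overlaps the *Cux2* interval of -0.84 to -0.13. Setting them side by side is no test of a difference between the paralogs.

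Taken within a library, where scaling has no effect, the ratio of *Cux2* to *Cux1* counts was 0.155, 0.135 and 0.136 in KO, and 0.168, 0.211 and 0.181 in control. The highest KO ratio was thus below the lowest control ratio, with a mean difference of -0.39 on the log2 scale (two-sided exact permutation *P*=0.1, the smallest possible). KO F731 did not stand apart in this ratio, and the difference was -0.36 without it. With any 1 library left out the difference lay between -0.46 (without control F722) and -0.30 (without control F724). The ratio of *Tle3* to *Tle1*, the pair of corepressor genes in the set, was 0.987, 0.962 and 0.898 in KO, and 1.17, 1.11 and 1.05 in control. Here too the groups did not overlap, with a difference of -0.23 on the log2 scale (two-sided exact permutation *P*=0.1) and of -0.19 without KO F731. Of all 36 ratios between the 9 genes, 7 did not overlap between KO and control, which compares with 7.99% of the ratios between all pairs of tested genes. *Cux2* took part in 4 of the 7, in which it was lower relative to *Cux1*, *Bhlhe22*, *Mdga1* and *Tle1*. The other 3 were those among *Cux1*, *Tle1* and *Tle3*. Ratios that share a gene are not independent of each other.

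**Figure D2:**
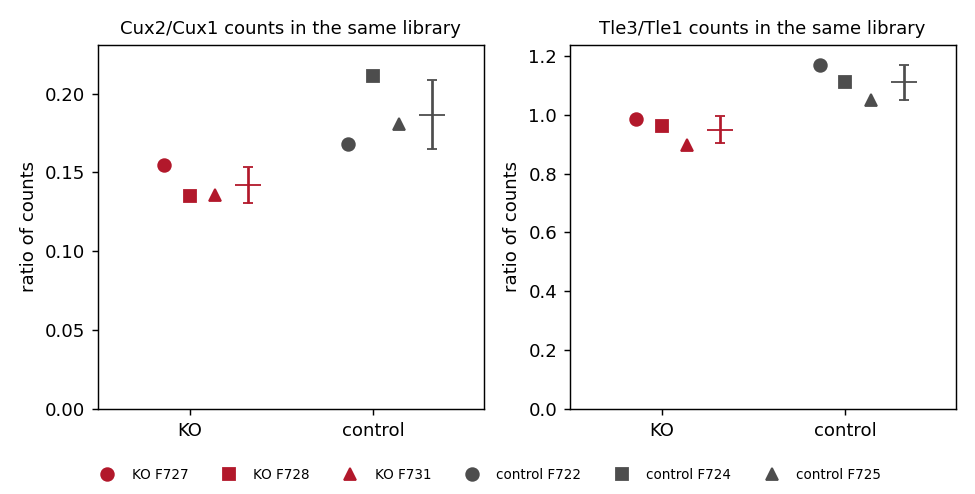
Ratio of counts within each library (vertical axes, starting at 0) for *Cux2* over *Cux1* and *Tle3* over *Tle1*, with KO libraries in red on the left and controls in grey on the right. Crossbars and whiskers are the mean and SD of 3 embryos. In both panels every KO ratio is below every control ratio, with the highest KO value at 0.155 for *Cux2* over *Cux1* and 0.987 for *Tle3* over *Tle1*.

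CUX1 and CUX2 belong to the cut homeobox genes, which also comprise *Satb1* and the ONECUT factors. All 5 genes of this family followed here and tested, *Cux1* and *Cux2* included, had a log2 fold change below 0, with a median of -0.41, and 4 of 5 did without KO F731, with a median of -0.32. Of all tested genes 50.8% lay below 0, and both medians are the value of *Onecut2*. *Satb1*, which encodes a chromatin organizer, was within 97.7 to 98.3 CPM in control and at 91.7, 101 and 65.8 CPM in KO, so that the groups overlapped and KO F731 was well below the other libraries. Its log2 fold change of -0.18 was -0.024 without KO F731. *Onecut2* and *Onecut3*, which encode transcription factors of early-born neurons, had log2 fold changes of -0.41 and -1.36, and *Onecut2*, the higher of the pair, was at 8.37 CPM or less in every library. Neither passed an unadjusted edgeR *P*-value under 0.05, and the groups overlapped for both. *Onecut3* had only 2, 34 and 5 counts in KO, and 6, 47 and 59 in control, with a standard error of 0.98. *Onecut1* had too few counts to be tested.

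TLE proteins are corepressors of the Groucho family, which bind no DNA themselves and are recruited by factors such as HES and RUNX proteins. *Tle3*, on chromosome 9 from 61372366 to 61418497, was at 133, 146 and 109 CPM in KO, and at 154, 149 and 148 CPM in control. All KO libraries were below all controls, but KO F728 came within 3 CPM of the lowest control. The controls varied by 2.06% and the KO libraries by 14.7% (coefficients of variation). The means were 129 ± 19.0 CPM in KO and 150.3 ± 3.10 CPM in control (SD, n = 3 each), a log2 fold change of -0.22 (standard error 0.12, 95% interval -0.51 to 0.070). The edgeR *P*-value was 0.118 and the adjusted value 0.863. The log2 fold change was -0.11 without KO F731, whereas without KO F728 it was -0.32 with an unadjusted *P*-value of 0.0459.

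*Tle1*, on chromosome 4 from 72117142 to 72200919, was at 134.5, 152 and 121 CPM in KO, and at 132, 134 and 141 CPM in control. The KO values lay on both sides of the controls and the means were 136 ± 15.5 CPM in KO and 135.5 ± 4.84 CPM in control (SD, n = 3 each). The log2 fold change was 0.0047 (standard error 0.11, 95% interval -0.25 to 0.26, edgeR adjusted *P*=0.991), and 0.081 without KO F731. Of the 6 tested TLE family genes, 3 lay below 0 and 3 above, with a median of -0.018, whereas 5 lay below 0 without KO F731, with a median of -0.020. *Tle2* had a log2 fold change of -0.20, *Tle4* of -0.040, *Aes*, which encodes a short family member without the repeats that bind recruiting factors, of 0.11, and *Tle6*, a divergent member, of 0.026. All 4 overlapped between the groups. The 7 genes followed of factors that recruit TLE proteins had 2 below 0 and a median of 0.16 (0.033 without KO F731).

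*Mef2c* encodes a MADS-box transcription factor that acts with class IIa histone deacetylases and takes part in neuronal differentiation and synapse number. It lies on chromosome 13 from 83504034 to 83667080, and was at 54.7, 41.4 and 50.3 CPM in KO, and at 47.15, 62.8 and 48.0 CPM in control. KO F728 was the lowest library and control F724 the highest, with the other 4 intermixed between 47 and 55 CPM. The log2 fold change was -0.11 (standard error 0.16, 95% interval -0.48 to 0.26, edgeR adjusted *P*=0.869), with -0.13 without KO F731 and 0.034 without control F724. The other MEF2 genes also overlapped between the groups, with log2 fold changes of -0.058 for *Mef2a*, 0.034 for *Mef2b* and -0.33 for *Mef2d*, none with an unadjusted edgeR *P*-value under 0.05. These 3 log2 fold changes were, without KO F731, 0.055 for *Mef2a*, -0.22 for *Mef2b* and -0.083 for *Mef2d*. Among class IIa deacetylases, *Hdac4* (-0.33) had the lowest log2 fold change and *Hdac9* (0.079) the highest, with -0.14 for *Hdac4* and 0.14 for *Hdac9* without KO F731. *Hdac5*, named after its values were seen, was at 140, 144 and 145 CPM in KO, and at 156, 170 and 146 CPM in control. It was the 1 of the 4 whose groups did not overlap, with a log2 fold change of -0.14 (-0.15 without KO F731) and an unadjusted edgeR *P*-value of 0.196.

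*Bhlhe22* encodes a bHLH repressor that acts with the PRDM family protein PRDM8 and is known for its role in the identity of cortical areas. The gene has a single exon on chromosome 3, from 18054174 to 18057517. It was at 83.2, 72.4 and 83.5 CPM in KO, and at 81.9, 91.8 and 67.4 CPM in control. All KO values were inside the range of the controls, and the log2 fold change was -0.013 (standard error 0.14, 95% interval -0.33 to 0.30, edgeR adjusted *P*=0.98), with -0.049 without KO F731 and 0.091 without control F724. *Prdm8*, its partner, was at 60.2, 58.3 and 54.5 CPM in KO, and at 69.9, 79.0 and 61.0 CPM in control. The *Prdm8* groups did not overlap, although KO F727 and control F725 were less than 1 CPM apart, and its log2 fold change was -0.28 with a standard error of 0.12, an unadjusted edgeR *P*-value of 0.052 and an adjusted one of 0.863. In the same bHLH family, *Olig1* had a log2 fold change of -0.60 and *Olig3* one of 0.47, both at low levels and with overlapping groups.

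*Mdga1* encodes a GPI-anchored cell surface protein of upper-layer neurons, which binds neuroligins and takes part in radial migration. It lies on chromosome 17 from 29827949 to 29970087. Its level was 82.6, 82.2 and 66.9 CPM in KO, and 81.7, 87.3 and 74.1 CPM in control. KO F727 and F728 were almost equal and inside the control range, and KO F731 was below it. On the log2 scale the fold change was -0.067 (standard error 0.12, 95% interval -0.35 to 0.22, edgeR adjusted *P*=0.884), and 0.024 without KO F731. Of the 7 genes followed for MDGA proteins and their synaptic partners, 5 lay below 0, with *Nlgn3* (-0.24, and -0.092 without KO F731) the lowest and *Nlgn1* (0.043) the highest, both of which encode neuroligins. *Mdga2*, the paralog, had a log2 fold change of 0.015.

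*Kitl* encodes the KIT ligand, also known as stem cell factor, a membrane-bound or shed growth factor. The gene is on chromosome 10 from 100015630 to 100100416. It was at 48.5, 47.9 and 44.35 CPM in KO, and at 44.37, 71.0 and 54.9 CPM in control. The KO libraries were close together, with a coefficient of variation of 4.79%, whereas the controls varied by 23.6%, and control F722 was level with the lowest KO library. For *Kitl* the log2 fold change was -0.27 (standard error 0.17, 95% interval -0.67 to 0.12, edgeR adjusted *P*=0.863), and -0.24 without KO F731. It depended on the control libraries, with -0.082 without control F724 and -0.43 without control F722, where the unadjusted *P*-value was 0.0266. *Kit*, which encodes the receptor tyrosine kinase for this ligand, was at 48.4, 43.4 and 45.0 CPM in KO, and at 52.0, 56.0 and 52.5 CPM in control. Here the groups did not overlap, and the log2 fold change was -0.23 with a standard error of 0.10, and -0.22 without KO F731. Its edgeR *P*-value was 0.0485 before and 0.863 after adjustment.

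*Rgs8* encodes a regulator of G protein signalling of the R4 family, which speeds GTP hydrolysis by G alpha subunits and so shortens their signal. It lies on chromosome 1 from 153653025 to 153700323. The gene was at 37.8, 36.6 and 31.7 CPM in KO, and at 36.4, 40.2 and 51.6 CPM in control. The KO libraries were all below the control mean of 42.7 CPM, but control F722 lay among them. The log2 fold change was -0.27 (standard error 0.15, 95% interval -0.63 to 0.088, edgeR adjusted *P*=0.863), with -0.20 without KO F731 and -0.12 without control F725. Of the 7 tested R4 genes, 5 lay below 0, with a median of -0.23. *Rgs16*, which encodes another member, was at 27.6, 28.8 and 21.8 CPM in KO, and at 31.5, 33.6 and 34.1 CPM in control. Its groups did not overlap, and the log2 fold change was -0.34 with a standard error of 0.13, an unadjusted edgeR *P*-value of 0.0343 and an adjusted one of 0.863. All 5 listed G alpha genes lay below 0, with a median of -0.19, and 4 did without KO F731, with a median of -0.016.

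**Figure D3:**
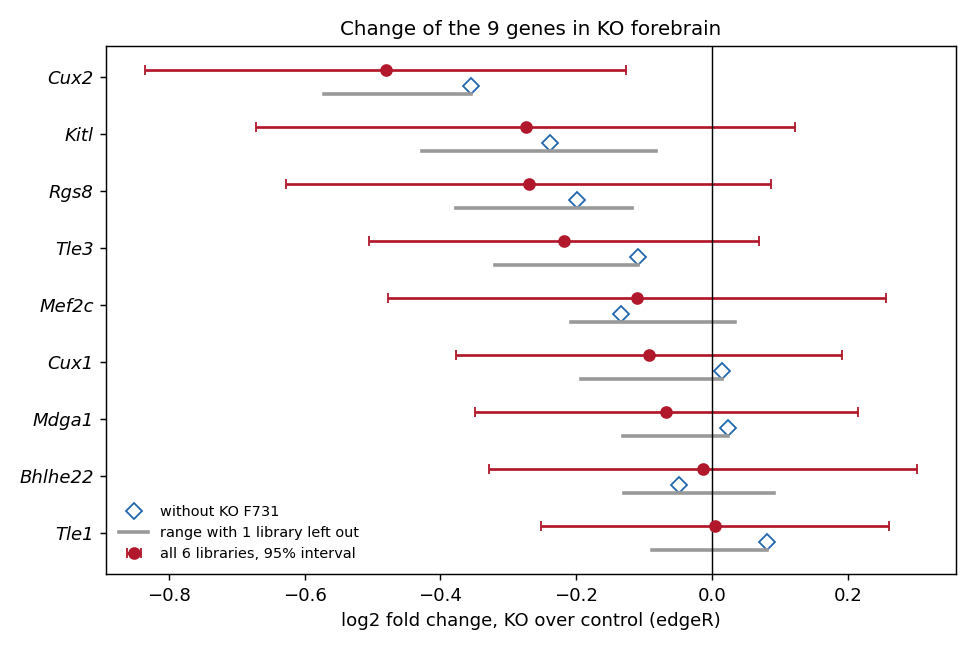
Log2 fold change of KO over control (horizontal axis, edgeR) for the 9 genes, with the 95% interval over all 6 libraries in red, the value without KO F731 as an open blue diamond and the range of values with 1 library left out as a grey bar. The *Cux2* interval, -0.84 to -0.13, is the one that does not reach 0, and the grey bars of *Mef2c*, *Cux1*, *Mdga1*, *Bhlhe22* and *Tle1* cross 0.

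The 9 genes differed several-fold in level once divided by length. In control, *Bhlhe22* had 24.0 CPM per kb of exon, *Tle1* 15.6, *Tle3* 12.9, *Kitl* 9.60, *Cux1* 9.56, *Mdga1* 8.52, *Rgs8* 4.43, *Cux2* 3.54 and *Mef2c* 3.35. In this order the control libraries of *Kitl* and *Cux1*, of *Rgs8* and *Cux2* and of *Cux2* and *Mef2c* overlapped, so these neighbours could not be placed apart, whereas the other neighbours did not overlap. The KO order was the same for the top 3 genes, and *Cux2* was the lowest in KO, at 2.53 ± 0.42 CPM per kb against 3.54 ± 0.35 in control (SD, n = 3 each). The order depends on the gene model. Per kb of the longest coding transcript, *Tle1* was at 31.01 and *Tle3* at 28.9 CPM per kb in control, above *Bhlhe22* at 24.0, and *Cux2* was lowest at 4.06.

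Across the 6 libraries, log2 CPM of the 9 genes had a Pearson *r* above 0 for 29 of 36 pairs, with a median of 0.44. Without KO F731 it was above 0 for 19 of 36 pairs with a median of 0.077. KO F731 was the lowest library for most of the 9 genes, and the libraries of a gene pair share their depth and scaling. The genes whose pattern over the 6 libraries was most like each member included *Pxn* for *Cux1* (*r* = 0.9993), *Klc2* for *Rgs8* (*r* = 0.9977) and *Srxn1* for *Cux2* (*r* = 0.9958). *Bcl11b*, a transcription factor gene of layer 5 neurons, came first for *Kitl* (*r* = 0.982). *Klc2* also ranked first for *Rgs8* without KO F731, *Pxn* and *Srxn1* ranked at 6 and *Bcl11b* at 12. With 15027 genes compared over 6 libraries, these values are given as a description.

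Of 12 other tested upper-layer genes, 7 lay below 0 and the median log2 fold change was -0.067 (-0.11 without KO F731). At an unadjusted edgeR *P*-value under 0.05, *Pou3f2* (-0.61) and *Unc5d* (-0.40) lay below 0, and *Dtx4* (0.38) lay above. *Pou3f2* encodes the POU factor BRN2, *Unc5d* a netrin receptor of migrating upper-layer neurons, and *Dtx4* a ubiquitin ligase related to Notch signalling. Mid- and deep-layer genes had 8 of 15 below 0 and a median of -0.040 (-0.0019 without KO F731), with *Pcp4* (0.60), which encodes a calmodulin-binding peptide, past the same unadjusted threshold. *Pcp4* was at 35.3, 29.0 and 53.0 CPM in KO, and at 30.8, 23.3 and 22.8 CPM in control, so the groups overlapped with KO F731 the highest, and its log2 fold change was 0.33 without KO F731.

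Markers of the other cell types that forebrain holds are given beside these values. Of the 14 pan-neuronal genes, 12 lay below 0 with a median of -0.14, and 12 did without KO F731 with a median of -0.11. The 9 intermediate progenitor genes had 8 below 0 and a median of -0.18 (6 and -0.084 without KO F731), and *Insm1*, a zinc finger gene of progenitors that leave the ventricular surface, was the lowest at -0.60. *Insm1* was at 83.1, 103 and 65.2 CPM in KO, and at 133, 132 and 117 CPM in control, without overlap. Its log2 fold change was -0.45 without KO F731, and its edgeR *P*-value was 0.00776 before and 0.863 after adjustment. The 10 RG genes had 3 below 0 and a median of 0.18 (2 and 0.18 without KO F731), and *Fabp7*, whose product binds fatty acids in RG, was at 703, 690 and 836 CPM in KO, and at 598, 643 and 549 CPM in control. Its groups did not overlap, and it had a log2 fold change of 0.32 (0.22 without KO F731) and an unadjusted edgeR *P*-value of 0.0295. Beside these, the 15 ventral GABAergic genes had 13 below 0 and a median of -0.25 (12 and -0.15 without KO F731). RG markers summed to 3390 to 3700 CPM in KO and 3080 to 3220 CPM in control, which did not overlap, and pan-neuronal markers to 5370 to 5930 CPM in KO and 5810 to 6380 CPM in control, which did. In the RG sum *Vim*, *Fabp7* and *Nes* had the highest levels, and all of them lay above 0. The 3 RG genes below 0 were *Pax6* (-0.15), *Slc1a3* (-0.11) and *Sox2* (-0.031), and each of these overlapped between the groups. The summed ventral markers had 755, 990 and 699 CPM in KO, and 781, 838 and 1300 CPM in control. Control F725 thus stood above every other library, with the other controls inside the KO range. The summed intermediate progenitor markers had 690 to 934 CPM in KO and 888 to 1120 CPM in control. Microglial markers had a median of 0.41 over all 6 libraries and -0.059 without KO F731, and summed to 30.4 to 62.7 CPM in KO and 30.3 to 33.9 CPM in control. Cajal-Retzius markers had 1 of 7 below 0 with a median of 0.067 (3 and 0.12 without KO F731), and endothelial markers 4 of 7 with a median of -0.014 (7 and -0.085 without KO F731). The part of cell composition in the values of the 9 genes was not tested.

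**Figure D4:**
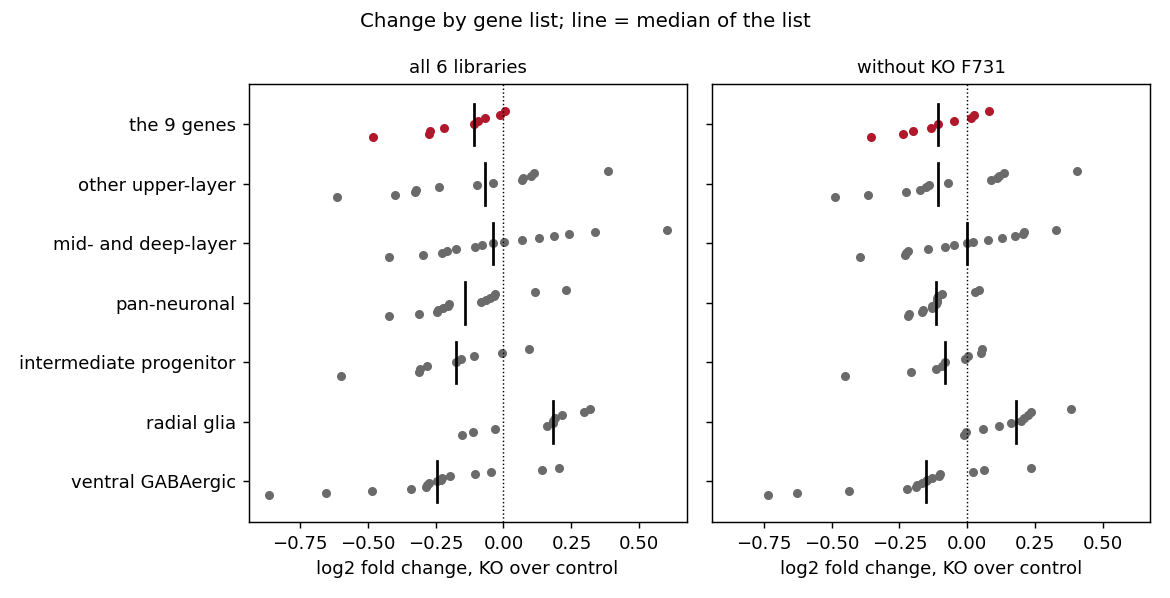
Log2 fold change of KO over control (horizontal axes, edgeR) for each tested gene of 7 groups, over all 6 libraries on the left and without KO F731 on the right, with a vertical line at the median of each group. The medians of the 9 genes (-0.11), the pan-neuronal genes (-0.14) and the intermediate progenitor genes (-0.18) are below 0 over all 6 libraries, and that of the RG genes (0.18) is above.

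Set against the mean log2 CPM of the 14 pan-neuronal genes in the same library, the 9 genes were centred near 0, with a median KO minus control difference of 0.029 and 4 of 9 below 0. *Cux2* was the 1 gene of the 9 whose groups did not overlap on this scale. Relative to the pan-neuronal mean it was at -3.03, -2.93 and -3.35 in KO, and at -2.74, -2.64 and -2.85 in control (log2). The difference was -0.36, and 0.592% of all tested genes had every KO library below every control in this way. Relative to the mean of the 10 RG genes, all 9 were below 0, with a median difference of -0.23. On that scale the KO libraries of *Cux1*, *Cux2*, *Tle1*, *Tle3* and *Rgs8* lay below every control, as did those of 18.2% of all tested genes, with the difference from -0.12 for *Tle1* to -0.62 for *Cux2*. For *Tle1* the highest KO value was -0.45 and the lowest control value -0.448, and for *Rgs8* both rounded to -2.31. Relative to the mean of the 9 intermediate progenitor genes the median difference was 0.11, with 4 of 9 below 0, and *Cux2* was the 1 gene of the 9 with every KO library below every control, as were 0.213% of all tested genes, though its highest KO value and lowest control value both rounded to -1.33. *Mdga1* lay the other way, with a difference of 0.14 and every KO library above every control, as did 7.44% of all tested genes. Relative to the mean of the 15 ventral GABAergic genes the median was 0.10, also with 4 of 9 below 0, and the groups overlapped for *Cux2*, with -0.334, -0.827 and -0.818 in KO, and -0.13, -0.062 and -0.927 in control. The place of the set, and whether the *Cux2* groups overlapped, thus depended on the genes they were set against. The mean difference of *Cux2* was below 0 against each list, from -0.62 (RG) to -0.28 (intermediate progenitor). Against the ventral genes, where its groups overlapped, control F725 was the lowest library.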

How the data were processed

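RNA from E13.5 forebrain of 3 KO and 3 control embryos was sequenced with 1 library per embryo. The authors trimmed reads with Trimmomatic, used HISAT2 to align them to mm10, and deposited raw counts per gene of a UCSC annotation, without normalization. Which program counted, with which strand setting and which rule for multimapping reads, is not given in the sources used here. On the selection of poly(A) RNA the labels and the Materials and Methods differ. *Cux1*, *Tle1* and *Rgs8* each overlap exons of 1 antisense noncoding gene that the table does not list, so their counts may hold its reads. The table had 18 further columns of samples that match no label and were not used. Columns of the 6 libraries carry animal numbers but no replicate numbers, and were used as replicates of their group. ChIP-seq and ATAC-seq data were not analysed here.

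Counts were fitted with edgeR 4.0.16 in R 4.3.3 (TMM scaling, filterByExpr with a minimum count of 10, robust quasi-likelihood) over 15027 genes, with Benjamini-Hochberg adjustment and a threshold of 0.05. Standard errors were obtained from the F statistic (absolute log2 fold change over its square root). Intervals cover 95%. The alternatives were DESeq2 1.42.0, which the study used, voom with sample quality weights in limma 3.58.1, RLE and upper-quartile scaling, no filter, a minimum of 1 CPM in 3 libraries, removal of histone and structural RNA genes before the fit, and leaving out each library in turn. The fits were tested on simulated data. The simulated libraries differed in depth and scaling but none had a composition of its own, as KO F731 has, so that case is not covered. Counting error of the 9 genes in the shallowest library was 2.13% to 5.78%. Positions and lengths are from GENCODE vM21 (GRCm38).

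The 9 genes and all lists were chosen with earlier results of these data known. Besides the 9, the genes named are their paralogs and, in each list, those at an unadjusted *P*-value under 0.05 or the lowest and highest, except in lists given by counts alone and in the structural RNA list, with the 1 gene of most like pattern for each member. Ratios, values relative to marker lists, the comparison with genes of like level, *Prdm8* and *Hdac5* were chosen after values had been seen. So were the RG genes *Vim*, *Nes*, *Pax6*, *Slc1a3* and *Sox2*. Some genes are not reported here and were left out of the lists.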

Additional observations from a re-analysis of the deposited data

How the results depend on the processing

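No paired analysis was possible because neither the count columns nor the sample titles tie a KO embryo to a control embryo. No alternative called any of the 9 genes at an adjusted *P*-value under 0.05, and *Cux2*, *Tle3*, *Kitl* and *Rgs8* lay below 0 under all 19 alternatives. Causes of the changes below were not tested.

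Over all genes, the 0 edgeR calls became 18 in DESeq2, 12 in voom and 1 without a filter. With 1 library left out they stayed at 0 in edgeR, and the 18 of DESeq2 became 4 to 33. The 100 genes lower at an unadjusted *P*-value under 0.05 became 600 in voom, and 28 to 241 in edgeR with 1 library left out. In DESeq2, 91 were lower, and 21 to 402 with 1 library left out. The 189 higher became 705 in DESeq2, 492 in voom and 491 without a filter. With 1 library left out, 90 to 758 were higher in edgeR and 173 to 1421 in DESeq2. Members lower at that level numbered 0 (without control F724) to 2 (without KO F728, or without control F722) with 1 library left out.

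Some log2 fold changes turned sign, among them *Olig3*, at 0.47 over all 6 libraries in edgeR. In voom they were 0.010 for *Cux1*, 0.042 for *Mdga1*, -0.093 for *Tle6*, 0.0072 for *Mef2a*, -0.082 for *Mef2b*, -0.078 for *Olig3*, -0.066 for *Mdga2* and 0.17 for *Lhx2*. *Bhlhe22* was at 0.015 with upper-quartile scaling and 0.0074 with the CPM filter, and *Tle1* at -0.0078 in DESeq2. Without a filter *Tle1* was at -0.031, *Tle6* at -0.014 and *Mdga2* at -0.021.

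When 1 library was left out, in either edgeR or DESeq2, the values ranged from -0.21 to 0.015 for *Cux1*, -0.23 to 0.034 for *Mef2c*, -0.15 to 0.091 for *Bhlhe22*, -0.15 to 0.024 for *Mdga1*, -0.11 to 0.081 for *Tle1*, -0.014 to 0.19 for *Aes*, -0.13 to 0.050 for *Tle4*, -0.15 to 0.39 for *Tle6*, -0.19 to 0.055 for *Mef2a*, -0.22 to 0.27 for *Mef2b*, -0.050 to 0.17 for *Hdac9*, -0.18 to 0.12 for *Mdga2*, -0.16 to 0.15 for *Nlgn1* and -0.17 to 0.12 for *Lhx2*.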
